A study of Mus musculus with 2 samples.

Results

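The major histocompatibility complex (MHC) class II antigen presentation genes were followed across the leukocytes of mouse brown adipose tissue (BAT). The set was chosen by name and not by level, with earlier results of these data known. It held H2-Aa, H2-Ab1, H2-Eb1, Cd74, H2-DMa, H2-DMb1, H2-DMb2, H2-Oa, H2-Ob and Ciita, and all 10 were found among the 32285 genes of the deposited count matrices. CD45+ Dapi- cells, live leukocytes by an antibody to a surface protein of all white blood cells, were sorted from digested BAT and sequenced with a droplet 3′ kit that tags each captured RNA with a unique molecular identifier (UMI). The study asked how loss of ATGL, the lipase that starts triglyceride breakdown, in fat cells changes the myeloid cells of the tissue. Both groups were male AdipoQ-CreERT2 ATGLfl/fl mice on a C57Bl/6 background, so the controls carried the floxed alleles and the Cre driver too. The labels give an age of 16 weeks, and the paper that reported the data gives a younger one. The control group was injected with vehicle, and the AdipoΔ/Δ group with 200 µL of tamoxifen at 10 mg/ml, every 2 days for 1 week with 2 weeks of rest after it. Tamoxifen and the loss of ATGL thus came together, and they cannot be told apart in any ratio between these groups. The adiponectin promoter limits the Cre to fat cells, which the sort left out, so the leukocyte counts cannot check the deletion.

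Each condition was 1 library, and the number of mice behind it is not stated. No difference between the conditions therefore has a replicate check, and no p-value is given. Every interval below is a 95% interval for counting error only, Poisson for levels, conditional binomial for ratios and Clopper-Pearson for shares. The control library held 2279 cells and the AdipoΔ/Δ library 2016 cells after filtering, with 10753113 and 11316418 UMIs and medians of 3678 and 3942 UMIs per cell. The libraries shared 4 cell barcodes.

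Class II molecules are pairs of an alpha and a beta chain that carry peptides from taken-up proteins to the cell surface, where helper T cells read them. H2-Aa and H2-Ab1 encode the chains of I-A, and H2-Eb1 encodes the beta chain of I-E, whose alpha chain gene is defective in C57BL/6 mice. Cd74, the invariant chain, holds new class II molecules together and keeps their groove closed. H2-DM, made of H2-DMa and either H2-DMb1 or H2-DMb2, exchanges the last fragment of Cd74 for peptides, and H2-DO, made of H2-Oa and H2-Ob, restrains H2-DM. Ciita is the transactivator that gathers at the promoters of these genes, on proteins bound to elements called the X and Y boxes. Dendritic cells, B cells and many tissue macrophages are known for high class II, and monocytes, their circulating relatives, for little.

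On the mm10 build (GENCODE vM21) 8 of the 10 genes lie in the MHC on chromosome 17, from H2-Oa (start 34092340) to H2-Eb1 (end 34316674). Ciita lies on chromosome 16 (10480059 to 10528418), and Cd74 lies apart from both. H2-Eb1, Ciita, H2-DMa and H2-Oa overlap a gene on the other strand, so their counts depend on how strand was used in counting.

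RefSeq promoters (build GRCm38.p6) were found for 7 of the 10 genes, and the 250 bases before each start were searched on both strands for the X box letters AACNNATG and the Y box letters TGATTGG. These letters were chosen with these promoters in view. The X letters stood upstream of the Y letters, on the strand of the gene and at most 40 bases away, in H2-Eb1, H2-DMb1, H2-DMb2 and H2-Ob, and in 0.0426% of all 32851 promoters searched (14 promoters, H2-Eb2 included). Single matches were common, with X letters in 7.71% and Y letters in 7.23% of all promoters. H2-Aa and H2-Oa held the Y letters alone, and H2-DMa held neither in its 2 promoters. The windows below are shown because their genes had very different patterns across the cell classes described next. H2-Aa and H2-Eb1 were high in dendritic cells and macrophages, and H2-DMb2 and H2-Ob were highest in B cells. Capitals mark the X letters, where present, and then the Y letters, 5′ to 3′ on the strand of the gene, at chr17:34287855-34287914 on the minus strand for H2-Aa and, on the plus strand, at chr17:34305766-34305824 for H2-Eb1, chr17:34145116-34145175 for H2-DMb2 and chr17:34238808-34238864 for H2-Ob.
H2-Aa: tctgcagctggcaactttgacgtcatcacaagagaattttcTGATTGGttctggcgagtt
H2-Eb1: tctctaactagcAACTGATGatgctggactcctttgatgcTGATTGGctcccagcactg
H2-DMb2: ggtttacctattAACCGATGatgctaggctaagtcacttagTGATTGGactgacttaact
H2-Ob: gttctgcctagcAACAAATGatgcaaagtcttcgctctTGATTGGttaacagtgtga
The bases between the X and Y letters numbered 20 in H2-Eb1, 21 in H2-DMb2 and 18 in H2-Ob. A match is a description of the letters and not evidence of a bound site.

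Cells were clustered over both libraries without the 10 genes and the other antigen presentation genes listed below, so that class II levels did not draw the borders. The 16 clusters were named from marker lists. The Ly6C high monocyte-like cluster (404 control and 205 AdipoΔ/Δ cells) was led by Chil3, Vcan and Ms4a4c. A pair of Ly6C low monocyte-like clusters was led by Ace (254 and 230 cells) and Gngt2 (114 and 62 cells). The marker score is the mean z-score of a list over the clusters. The Gngt2 cluster scored 1.54 on the Ly6C low list and 0.744 on the Ly6C high list, and the Ace cluster 2.69 and -0.236. Of the macrophage-like cells, 56 and 140 were M2-like (Folr2, Lyve1), 48 and 173 were matrix macrophages (Retnla, Ecm1, Fn1) and 13 and 90 were lipid-associated (Gpnmb, Trem2, Spp1). The matrix macrophages carried few general macrophage markers, with 1189 and 925 CPM for the 9 markers summed (CPM, the UMIs of a gene or list scaled to 1000000 UMIs of the class and library), against 15500 and 17581 CPM in the M2-like cells, so their name rests on the subset markers. Their marker score on the macrophage list was 0.16, under the 0.355 of the Ly6C high monocyte-like cluster. They gave 53.9% of the macrophage-like UMIs in control and 38.6% in AdipoΔ/Δ. Dendritic cell-like cells numbered 82 and 110 and B cell-like cells 263 and 99. A cluster of 57 and 210 cells led by Gm26917, with medians of 944 and 904.5 UMIs per cell, was left unnamed.

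In both libraries the chain genes were highest in dendritic cells and in the M2-like and matrix macrophages. The 3 chain genes together, H2-Aa, H2-Ab1 and H2-Eb1, stood at 21233 CPM (20835 to 21637) in control and 27400 CPM (27017 to 27787) in AdipoΔ/Δ dendritic cells. They stood at 22904 and 18447 CPM in M2-like macrophages and at 19655 and 17996 CPM in matrix macrophages. B cells had 10947 CPM (10675 to 11224) and 11454 CPM (11047 to 11872), and lipid-associated macrophages 9734 CPM (8662 to 10903) and 6926 CPM (6775 to 7078). Monocytes ranged from 688 CPM in control Ace monocytes to 8568 CPM in AdipoΔ/Δ Gngt2 monocytes. In control cells the order was M2-like, dendritic, matrix, B, lipid-associated, Gngt2, Ly6C high and Ace. In AdipoΔ/Δ cells dendritic cells came first, and Gngt2 monocytes stood above the lipid-associated macrophages. The neighbours in this order whose counting intervals overlapped were B cells and lipid-associated macrophages in control and M2-like and matrix macrophages in AdipoΔ/Δ (18175 to 18721 and 17769 to 18226 CPM).

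**Figure D1:**
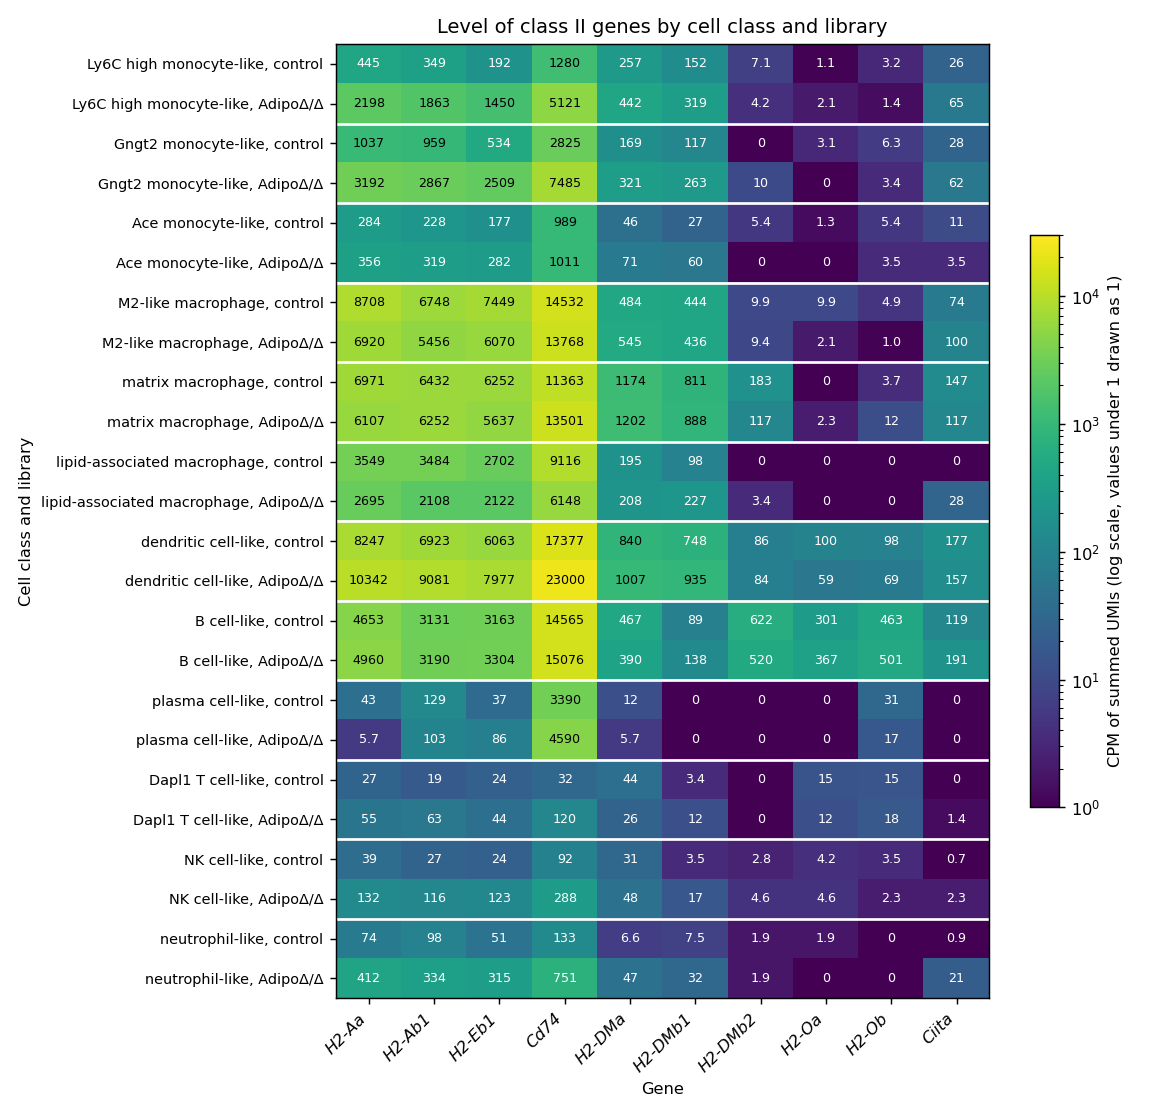
Level of each of the 10 genes (columns) in 12 cell classes of the control and the AdipoΔ/Δ library (rows), as CPM of summed UMIs on a log colour scale, with the value printed in each cell and values under 1 drawn as 1. Cd74 is the highest gene in every row shown except control Dapl1 T cells, up to 23000 CPM in AdipoΔ/Δ dendritic cells, and H2-Oa and H2-Ob pass 50 CPM among these rows only in B cells and dendritic cells.

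Cells not known for class II held some of these RNAs too, called the background here, and its level differed between the libraries. The chains stood at 89.4 CPM in control and 371 CPM in AdipoΔ/Δ NK cells, at 77.3 and 173 CPM in T cells, and at 223 and 1061 CPM in neutrophils. Over all kept cells the chains stood at 3158 CPM in control and 8299 CPM in AdipoΔ/Δ, so the AdipoΔ/Δ library held more class II RNA in all. The background bears on the low levels below, and its part in them was not tested beyond the values given beside them. Free RNA, doublets and RNA made by these cells themselves cannot be told apart in it.

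The largest ratio between the conditions among the named antigen-presenting classes was in Ly6C high monocytes. H2-Aa stood at 444.8 CPM (1256 UMIs) in control and 2198 CPM (3129 UMIs) in AdipoΔ/Δ, H2-Ab1 at 349 and 1863 CPM, and H2-Eb1 at 192 and 1450 CPM. The AdipoΔ/Δ level was thus 4.94-fold (4.63 to 5.28) the control level for H2-Aa, 5.33-fold (4.96 to 5.75) for H2-Ab1 and 7.56-fold (6.87 to 8.32) for H2-Eb1, and 5.59-fold (5.35 to 5.84) for the chains summed. H2-Eb1 took 19.5% of the chain UMIs in control and 26.3% in AdipoΔ/Δ. Cd74 stood at 1280 and 5121 CPM (4.00-fold, 3.84 to 4.16), and its share of the Cd74 and chain UMIs was 56.5% in control and 48.2% in AdipoΔ/Δ.

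The genes of peptide loading and control differed less in the same monocytes. H2-DMa stood at 257 CPM in control and 442 CPM in AdipoΔ/Δ (1.72-fold, 1.54 to 1.92), and H2-DMb1 at 152 and 319 CPM (2.09-fold, 1.83 to 2.39). Ciita stood at 26.2 CPM (74 UMIs) and 65.3 CPM (93 UMIs), a ratio of 2.49 (1.82 to 3.43). H2-DMb2, H2-Oa and H2-Ob had 20, 3 and 9 UMIs in control and 6, 3 and 2 in AdipoΔ/Δ, too few for a ratio. Of the 7 members with at least 50 UMIs over both libraries, 7 were at least 1.5-fold higher in AdipoΔ/Δ and 0 lower, beside 7.9% higher and 3.56% lower among all 6431 genes so measured. Their median log2 ratio was 2.00, and that of all genes 0.07. In the background classes, at lower levels, the median of the members measured was 2.49 in neutrophils (4 members) and 1.75 in NK cells (5 members). The log2 median of all genes was above 0.1 in several other classes, at 0.12 in macrophages, 0.37 in lipid-associated macrophages, 0.27 in neutrophils and 0.23 in T cells, and ratios there are to be read against it.

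The difference in Ly6C high monocytes lay in how many cells held the RNA as well as in how much. When each cell was thinned to 1000 UMIs, 84 of 395 control cells (21.3%, 17.3 to 25.6) and 99 of 195 AdipoΔ/Δ cells (50.8%, 43.5 to 58.0) kept a chain UMI. Unthinned, the shares were 38.1% and 81.0%, at medians of 6853.5 and 5973 UMIs per cell. The thinned share was 6.25% and 16.2% in NK cells (medians of 6470.5 and 6486 UMIs), 5.54% and 17.1% in T cells, and 8.19% and 32.9% in neutrophils (medians of 2968.5 and 2740 UMIs). At 5 or more chain UMIs of 1000, where the background falls away, stood 32 control cells (8.10%, 5.61 to 11.2) and 58 AdipoΔ/Δ cells (29.7%, 23.4 to 36.7), beside 0.481% and 1.73% of NK cells and 0.683% and 1.90% of neutrophils. The upper quartile of the chain UMIs of 1000 was 0 in control and 8 in AdipoΔ/Δ monocytes, and the lower quartile of control dendritic cells was also 8.

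**Figure D2:**
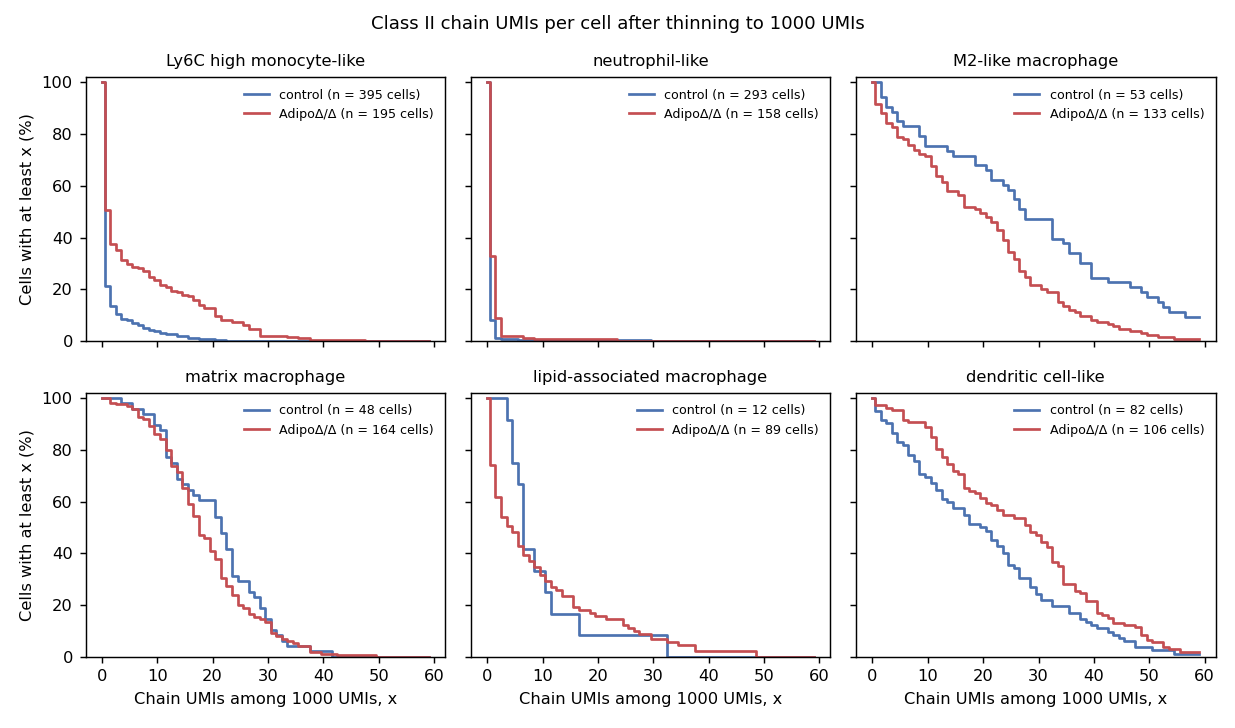
Share of cells (y axis, %) with at least x chain UMIs (x axis) after each cell was thinned to 1000 UMIs, in 6 cell classes, with a blue line for control and a red line for AdipoΔ/Δ. In Ly6C high monocytes the red line keeps 29.7% of cells at 5 UMIs against 8.10% for the blue line, while in neutrophils both lines are under 2% there.

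Within these monocytes the chain UMIs of a cell went with those of Cd74, with a Spearman rho of 0.68 over 395 control cells and 0.82 over 195 AdipoΔ/Δ cells, and against those of Ly6c2, with a rho of -0.18 and -0.40. Ly6c2 encodes the surface antigen by which classical monocytes are recognised. The cells of a library share its free RNA and reads, so these are descriptions. At a finer resolution the class held a Chil3-led and a Plac8-led cluster, and the chains were higher in AdipoΔ/Δ in both, at 612 and 3827 CPM in the Chil3 cells and 2106 and 8076 CPM in the Plac8 cells. Markers of other classes moved with the class II genes. The 9 macrophage markers summed to 1487 CPM in control, with Mertk at 0, and 2480 CPM in AdipoΔ/Δ with all 9 detected. Of the 8 dendritic cell markers, 5 were detected in control (88.5 CPM) and 7 in AdipoΔ/Δ (139 CPM), with Zbtb46 at 0 in both, while the 6 markers of the class itself summed to 4495 and 3846 CPM. In the 343 control and 124 AdipoΔ/Δ cells without a UMI of C1qa, C1qb, C1qc, Mertk, Cd209a, Flt3, Xcr1 or Clec9a, an alternative added after the data were seen, the chains stood at 865 and 3606 CPM, a ratio of 4.17. Without anchor integration the ratio was 2.85, and with the class II genes kept among the clustering features it was 10.7, so its size depends on where the border of the class is drawn.

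Ly6C low monocytes differed between their clusters. In Gngt2 monocytes the chains stood at 2530 CPM (1615 UMIs) in control and 8568 CPM (2507 UMIs) in AdipoΔ/Δ, a ratio of 3.39 (3.18 to 3.61). H2-Eb1 again had the highest ratio of the chains, with 534 and 2509 CPM (4.70-fold, 4.12 to 5.36). Cd74 stood at 2825 and 7485 CPM (2.65-fold), H2-DMa at 169 and 321 CPM (1.90-fold) and H2-DMb1 at 117.5 and 263 CPM (2.24-fold), so that 6 of the 6 members with enough UMIs were 1.5-fold higher and 0 lower, beside 10.7% and 8.09% of all genes. In Ace monocytes, the patrolling type, the chains stood at 688 CPM (630 to 750) and 956 CPM (877 to 1041), a ratio of 1.39 (1.23 to 1.57), and Cd74 at 989 and 1011 CPM. Of the 6 members measured there, 3 were 1.5-fold higher and 0 lower, beside 9.04% and 2.84% of all genes. The AdipoΔ/Δ level of the Ace cells was under that of neutrophils of the same library (1061 CPM) and above those of its NK and T cells. Their share of cells with 5 or more chain UMIs of 1000 was 3.67% in control and 2.17% in AdipoΔ/Δ. At 0 chain UMIs of 1000 stood 76.6% and 53.3% of Ace cells, beside 91.8% and 67.1% of neutrophils. Whether the difference in Ace cells goes beyond the background was not tested. For both clusters together the ratio was 2.31 (2.19 to 2.45), but it was 1.19 without anchor integration.

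**Figure D3:**
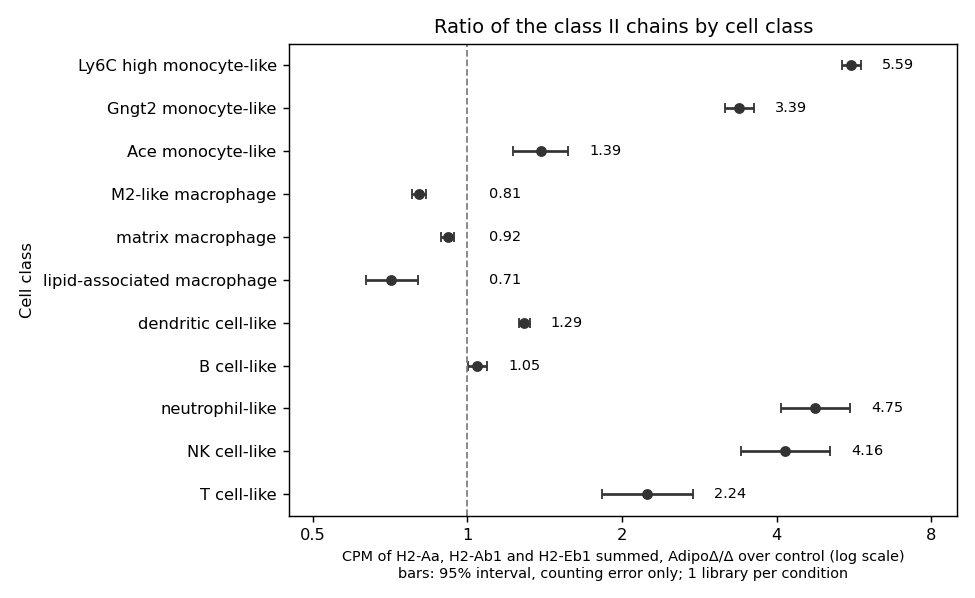
Ratio of the summed CPM of H2-Aa, H2-Ab1 and H2-Eb1, AdipoΔ/Δ over control (x axis, log scale), by cell class, with bars for the 95% interval of counting error and 1 library per condition. Ly6C high monocytes (5.59) and neutrophils (4.75) stand to the right of the line at 1, B cells (1.05) close to it and the 3 macrophage subsets to its left.

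Macrophages had the opposite direction. Over all macrophage-like cells (117 control and 403 AdipoΔ/Δ cells) the chains stood at 20354 CPM in control and 14388 CPM in AdipoΔ/Δ, a ratio of 0.707 (0.692 to 0.722). Lipid-associated macrophages, the subset with the least class II, gave 6.07% of the macrophage UMIs in control and 33.7% in AdipoΔ/Δ. With the shares of the subsets held at those of the control, an alternative added after the data were seen, the ratio was 0.860. Within the subsets it was 0.805 (0.780 to 0.832) in M2-like, 0.916 (0.889 to 0.943) in matrix and 0.711 (0.634 to 0.801) in lipid-associated macrophages, the last with 299 chain UMIs from 13 control cells. Those 13 cells had a median of 1348 UMIs, against 11846 in the 90 AdipoΔ/Δ cells, and of 6 members measured 1 was 1.5-fold higher (H2-DMb1, with 3 control UMIs) and 1 lower (H2-Ab1), beside 39.9% and 16.3% of all genes. The unnamed Gm26917 cluster had 9731 CPM in control and 14356 CPM in AdipoΔ/Δ, and counting it as macrophage gave 0.763.

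Cd74 followed the chains in lipid-associated macrophages, at 9116 and 6148 CPM (0.674, 0.598 to 0.763), and less so in the other subsets. It stood at 14532 and 13768 CPM in M2-like cells (0.947, 0.910 to 0.986) and at 11363 and 13501 CPM in matrix cells (1.19, 1.14 to 1.24), so its share of the Cd74 and chain UMIs over all macrophages was 38.0% in control and 43.5% in AdipoΔ/Δ. Of the members with at least 50 UMIs, 0 were 1.5-fold higher and 1 of 8 lower over all macrophages, beside 19.6% higher and 8.63% lower among all genes. The lower member was H2-DMb2, at 103 and 49.0 CPM (0.476, 0.347 to 0.663). Within matrix macrophages, where nearly all of its UMIs were, it stood at 183.5 CPM (50 UMIs) and 117 CPM (156 UMIs), a ratio of 0.638 (0.461 to 0.896). There 1 of 8 members was lower and 0 higher, beside 4.66% and 18.4% of all genes, and in M2-like cells 0 of 7 members were past 1.5-fold either way, beside 18.1% of genes higher and 6.5% lower.

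The subsets differed in how they paired the chains with the loading genes. Within a library, where free RNA is shared, the chains of matrix macrophages were close to those of M2-like cells, at 0.858 (0.825 to 0.893) of their level in control and 0.976 (0.957 to 0.995) in AdipoΔ/Δ. H2-DMa was higher in matrix macrophages, with 1174 CPM (1049 to 1310) against 484 CPM (393 to 590) in control and 1202 against 545 CPM in AdipoΔ/Δ, or 2.43-fold (1.93 to 3.08) and 2.20-fold (2.00 to 2.44). H2-DMb1 was higher too, with 811 against 444 CPM and 888 against 436 CPM. H2-DMb2 had 50 UMIs in matrix and 2 in M2-like control cells, and 156 and 9 in the AdipoΔ/Δ library, where the ratio was 12.4 (6.38 to 27.7). In all, 4 of 8 members were 1.5-fold higher in matrix macrophages in control and 0 lower, beside 21.7% and 19.9% of all genes, and 3 of 8 and 0 in AdipoΔ/Δ, beside 14.7% and 18.5%.

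Lipid-associated macrophages were lower for every member that could be measured. Their chains stood at 0.425 (0.377 to 0.478) of the M2-like level in control and 0.375 (0.366 to 0.386) in AdipoΔ/Δ. Cd74 stood at 9116 and 6148 CPM, H2-DMa at 195 and 208 CPM and Ciita at 0 UMIs in control and 28.4 CPM (33 UMIs) in AdipoΔ/Δ, where M2-like cells had 100.5 CPM. All 6 members measured in control were 1.5-fold lower than in M2-like cells, beside 28.8% of all genes lower and 28.6% higher, and 7 of 7 in AdipoΔ/Δ, beside 25.5% and 19.3%. The subset was mixed in the AdipoΔ/Δ library, where 25.8% of its 89 thinned cells had 0 chain UMIs and 48.3% had 5 or more, against 0% and 97.0% in matrix macrophages. The M2-like cells were mixed as well. At a finer resolution the C1qb-led cells held 28443 CPM of the chains in control and 23871 CPM in AdipoΔ/Δ, and the Lyve1-led cells 18366 and 11407 CPM, in 32 and 74 and in 28 and 69 cells.

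Dendritic cells had the highest Cd74 and the highest chain levels of the AdipoΔ/Δ library. H2-Aa stood at 8247 and 10342 CPM, H2-Ab1 at 6923 and 9081 CPM and H2-Eb1 at 6063 and 7977 CPM, and the summed ratio was 1.29 (1.26 to 1.32). Cd74 stood at 17377 and 23000 CPM (1.32-fold, 1.29 to 1.36), H2-DMa at 840 and 1007 CPM and H2-DMb1 at 748 and 935 CPM. All 10 members had enough UMIs, and 0 were 1.5-fold higher, beside 13.2% of all genes. H2-Oa was the 1 member past the fold, at 100.1 CPM (51 UMIs) in control and 58.9 CPM (42 UMIs) in AdipoΔ/Δ (0.588, 0.381 to 0.902), beside 3.98% of all genes lower. H2-Ob stood at 98.2 and 68.7 CPM (0.700, 0.462 to 1.06) and Ciita at 177 and 157 CPM. At a finer resolution the Cd209a-led cells, which carry a marker of type 2 conventional dendritic cells, had 24029 and 28067 CPM of the chains, and the Xcr1-led cells, type 1 conventional dendritic cells by that marker, had 14543 CPM in 19 control cells and 25312 CPM in 25 AdipoΔ/Δ cells.

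Set against the macrophages of their own library, the chains of dendritic cells stood at 1.04-fold (1.02 to 1.07) in control and 1.90-fold (1.87 to 1.94) in AdipoΔ/Δ. Of 10 members in control, 3 were 1.5-fold higher in dendritic cells and 0 lower, beside 19.3% and 28.9% of all genes, and in AdipoΔ/Δ 8 of 9 were higher and 0 lower, beside 9.55% and 32.5%. The macrophage mix differed, as lipid-associated cells, the subset with the least class II, gave 6.07% of its UMIs in control and 33.7% in AdipoΔ/Δ. The chain levels of AdipoΔ/Δ M2-like and matrix cells, given above, were nearer to those of dendritic cells than the pooled level was. H2-Oa, with 51 and 42 UMIs in dendritic cells against 2 and 5 in macrophages, set the types apart in both libraries.

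B cells had a class II profile of their own. The chains differed little between the conditions, with 10947 and 11454 CPM (1.05, 1.00 to 1.09), and the direction was not stable, at 0.788 with a mitochondrial limit of 2%, 0.815 with a minimum of 500 genes per cell and 0.969 with the neutrophil level taken off. Cd74 stood at 14565 and 15076 CPM, close to the 14532 and 13768 CPM of M2-like macrophages, whose chains were higher. Ciita stood at 119 CPM (67 UMIs) in control and 191 CPM (50 UMIs) in AdipoΔ/Δ (1.60, 1.09 to 2.35) and H2-DMb1 at 89.0 and 138 CPM (1.55, 0.979 to 2.42), so 2 of 10 members were 1.5-fold higher and 0 lower, beside 11.7% and 4.68% of all genes.

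B cells held the RNA of another H2-DM beta chain gene than myeloid cells. H2-DMb2 stood at 621.5 CPM (349 UMIs) in control and 520 CPM (136 UMIs) in AdipoΔ/Δ B cells, against 86.4 and 84.1 CPM in dendritic cells. Of the UMIs of H2-DMb1 and H2-DMb2 together, H2-DMb2 took 87.5% (83.8 to 90.5) in control and 79.1% (72.2 to 84.9) in AdipoΔ/Δ B cells. It took 10.4% and 8.25% in dendritic cells, 18.5% (14.0 to 23.6) and 11.7% (9.98 to 13.5) in matrix macrophages, 2.17% and 2.11% in M2-like macrophages and 4.44% and 1.30% in Ly6C high monocytes. The share needs no scaling between libraries. The copies resemble each other, and 30.6% of the 55-base windows at the 3′ end of H2-DMb1 and 10.8% of those of H2-DMb2 also occur in the other, so some reads could not be placed in a single gene.

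H2-DO followed B cells as well. H2-Oa stood at 301 CPM (169 UMIs) and 367 CPM (96 UMIs) and H2-Ob at 463 CPM (260 UMIs) and 501 CPM (131 UMIs) in B cells, and their ratio to dendritic cells was 3.01 (2.19 to 4.20) and 6.23 (4.30 to 9.19) for H2-Oa and 4.72 (3.47 to 6.52) and 7.29 (5.21 to 10.3) for H2-Ob. H2-DMb1 went the other way, at 0.119 (0.0868 to 0.160) and 0.147 (0.102 to 0.206) of the dendritic cell level. Of 10 members, 3 were 1.5-fold higher and 5 lower in B cells than in dendritic cells in control, beside 24.5% and 24.7% of all genes, and 3 and 6 in AdipoΔ/Δ, beside 21.5% and 31.4%. H2-DO made 39.4% (36.4 to 42.3) and 45.3% (40.9 to 49.8) of the H2-DO and H2-DM UMIs in B cells, 10.6% (8.71 to 12.7) and 5.92% (4.80 to 7.22) in dendritic cells and 0.504% and 0.498% in macrophages. H2-Eb2, a further beta chain gene outside the set, was also most abundant in B cells, at 108.6 and 76.5 CPM.

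**Figure D4:**
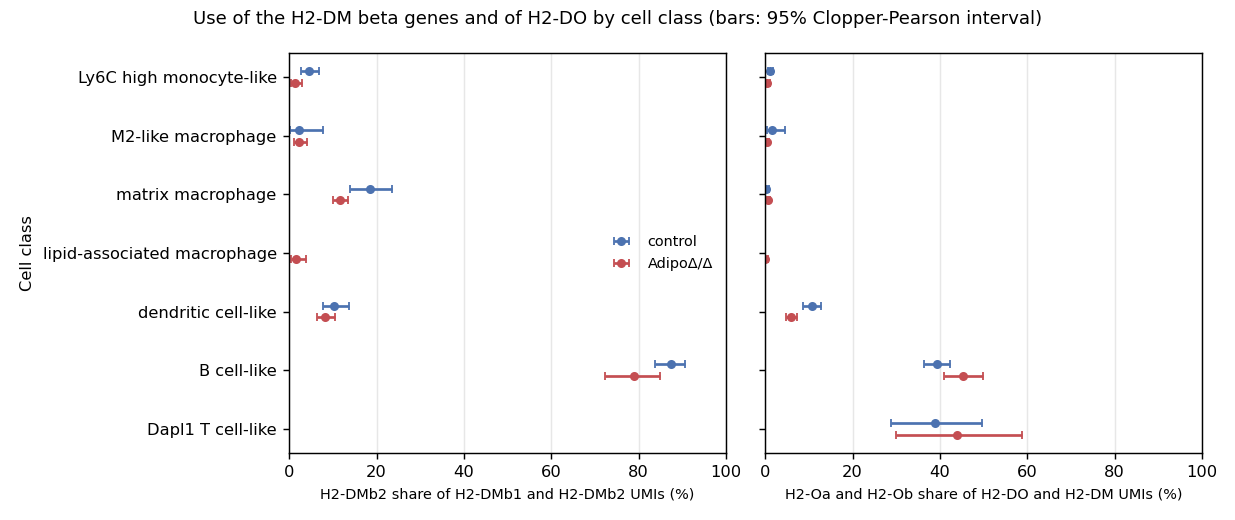
Left, the share of H2-DMb2 among the UMIs of H2-DMb1 and H2-DMb2 (x axis, %), and right, the share of H2-Oa and H2-Ob among those of H2-DO and H2-DM, by cell class, with blue points for control, red points for AdipoΔ/Δ and bars for the 95% Clopper-Pearson interval. B cells stand at 87.5% and 79.1% on the left, and on the right they and the Dapl1 T cells lie between 38.9% and 45.3%.

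In T and plasma cells some genes of the set stood in other proportions to each other than in B cells. Dapl1 T cells, whose leading genes Lef1, Ccr7 and Tcf7 are expressed in naive T cells, had 35 H2-DO UMIs in control and 22 in AdipoΔ/Δ. At the B cell ratios of each library, these would come with 28.5 and 13.2 UMIs of H2-DMb2, against 0 and 0 found. For the B cell receptor gene Cd79a they would come with 160 and 73.9 UMIs, against 2 and 1 found. For Cd79b, another such gene, the numbers were 85.7 and 51.9, against 8 and 10 found. For Cd74 they were 667 and 382, against 37 and 87 found. The H2-DO counts are small, and their source was not tested. Plasma cells (12 and 7 cells) had 3390 and 4590 CPM of Cd74 (551 and 799 UMIs), with the chains at 209 and 195 CPM and Ciita at 0 UMIs in both libraries. Cd74 made 94.2% and 95.9% of their Cd74 and chain UMIs, against 57.1% and 56.8% in B cells.

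Neutrophils, a background class here, also had more class II RNA in AdipoΔ/Δ. Their H2-Aa stood at 74.1 and 412 CPM, their Cd74 at 133 and 751 CPM and their Ciita at 1 UMI in 314 control cells and 11 UMIs in 174 AdipoΔ/Δ cells. Of the 4 members measured, 4 were 1.5-fold higher and 0 lower, beside 22.1% and 3.48% of all genes, and in NK cells 5 of 5 were higher and 0 lower, beside 5.92% and 2.25%. With the level of the neutrophils of the same library taken off both levels, the ratio in Ly6C high monocytes was 5.83, in macrophages 0.662 and in dendritic cells 1.25.

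The other genes of antigen presentation were read from a list of which 34 of 36 symbols were found, and 31 had at least 50 UMIs over both libraries in macrophages. There 5 were 1.5-fold higher in AdipoΔ/Δ and 5 lower, beside the 19.6% and 8.63% of all genes given above. With at least 200 UMIs asked of a gene, 5 of 19 were higher and 1 lower, and at a mitochondrial limit of 2%, 7 of 25 and 2. The share of all genes was not taken at these settings. The higher genes were 5 of the 7 for invariant chain and antigen processing, while 0 of 7 were lower. Ctsl, a cathepsin that cuts Cd74 in thymic epithelium, stood at 81.0 and 292 CPM (3.60-fold, 2.64 to 5.05), and Ctsd, a lysosomal protease, at 559 and 1700 CPM (3.04-fold, 2.70 to 3.44). Ctsb stood at 1880 and 3726 CPM (1.98-fold), Ifi30, the lysosomal thiol reductase, at 212 and 389 CPM (1.84-fold) and Lgmn, the asparaginyl endopeptidase, at 471 and 720 CPM (1.53-fold). Ctss, the cathepsin that trims Cd74 in most antigen-presenting cells, had a ratio of 1.37, and Sppl2a, which clears its last membrane fragment, 1.14 (0.883 to 1.49).

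Ctsl is a leading gene of the lipid-associated cells, which gave more of the macrophage UMIs in AdipoΔ/Δ, so the processing genes were also read within subsets. Of the 7, 5 were 1.5-fold higher and 0 lower within matrix cells, beside 18.4% and 4.66% of all genes. Their median log2 ratio there was 0.93, against 0.88 over all macrophages. Within M2-like cells 3 were higher and 0 lower (median 0.55), beside 18.1% and 6.5% of all genes. Within lipid-associated cells 1 was higher and 2 lower (median -0.01), beside 39.9% and 16.3%, and the median of all genes there was 0.37. Within M2-like cells the ratio was 1.46 (0.96 to 2.30) for Ctsl, 1.16 (1.06 to 1.26) for Ctsb, 1.22 (1.04 to 1.43) for Lgmn, 1.83 (1.44 to 2.34) for Ctsd, 1.76 (1.23 to 2.59) for Ifi30 and 1.55 for Sppl2a. Within matrix cells Ctsb stood at 389 and 862 CPM (2.22-fold, 1.81 to 2.73), Ctsd at 407 and 774 CPM (1.90-fold, 1.56 to 2.33), Lgmn at 66.0 and 125 CPM (1.89-fold), Ctsl at 4 and 53 UMIs (2.71-fold) and Ifi30 at 117 and 235 CPM (2.00-fold, 1.39 to 2.98). Ctsd and Ifi30 were therefore past 1.5-fold in both of these subsets.

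The lower genes over all macrophages had other roles, and their counts by role stand beside 19.6% higher and 8.63% lower among all genes. Of the 10 transcription control genes measured, 0 were higher and 2 lower, Irf4 at 109 and 62.6 CPM (0.576, 0.426 to 0.789) and Nfyb, a subunit of the factor that binds the Y box, at 0.659 (0.348 to 1.35), while the highest was Irf8 (1.18). Of the 3 turnover genes, March8 (0.551, 0.351 to 0.894) and March1 (0.637, 0.423 to 0.989), ubiquitin ligases that act on class II or related surface proteins, were lower, and Cd83, which opposes March1, stood at 1.26. Costimulation genes held 0 past the fold, from Cd40 (0.733) to Cd86 (1.07). Of the 8 class I genes measured, only Tap2, a chain of the peptide transporter, was past it, at 77.1 and 36.8 CPM (0.477, 0.331 to 0.702), and Psmb8 was the highest (1.21). Tap2 was lower within M2-like (0.379) and matrix cells (0.441) too. Of the transcription control genes measured, 0 of 6 were lower within M2-like and 0 of 4 within matrix cells, and 1 was higher in each. Of the turnover genes, 0 of 2 were lower in either subset, and 1 was higher within matrix cells. Within lipid-associated cells 1 of 2 transcription control genes and 0 of 1 turnover genes were lower. Among all genes 6.5%, 4.66% and 16.3% were lower in these subsets, and 18.1%, 18.4% and 39.9% higher.

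**Figure D5:**
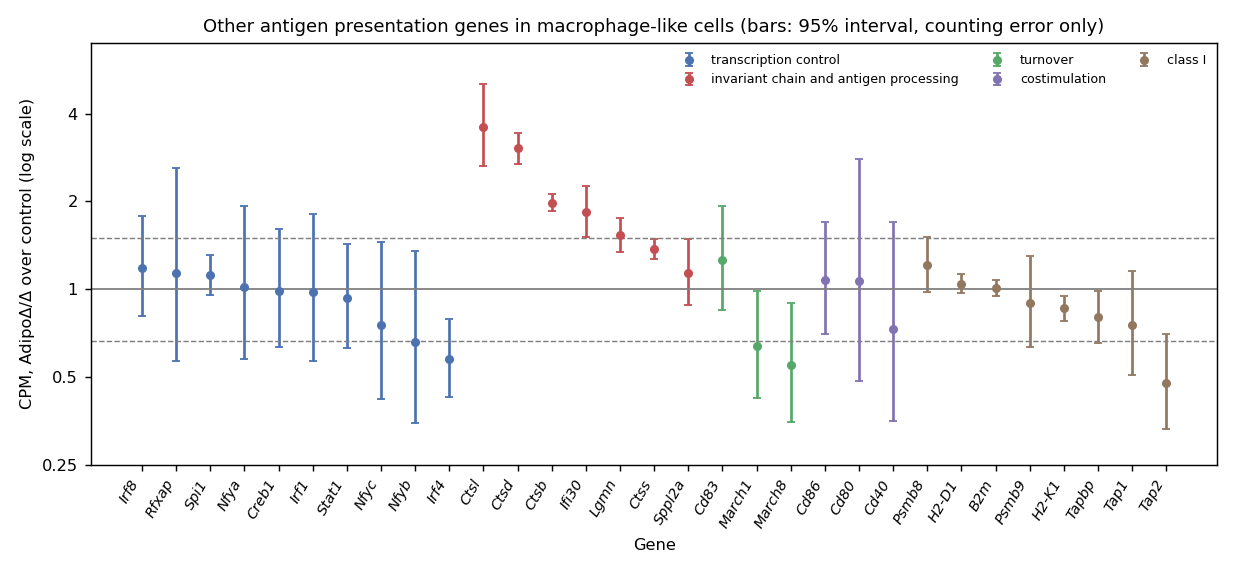
Ratio of CPM, AdipoΔ/Δ over control (y axis, log scale), for the listed genes with at least 50 UMIs in macrophage-like cells (x axis), coloured by role, with bars for the 95% interval of counting error. The genes past 1.5-fold upwards are all processing genes, led by Ctsl (3.60) and Ctsd (3.04), and Tap2 (0.477) is the lowest.

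In Ly6C high monocytes 6 of 29 listed genes were 1.5-fold higher and 1 lower, beside the 7.9% and 3.56% of all genes given above. Lgmn had a ratio of 2.20, Tap2 1.63, Irf4 1.57, Ctsd 1.56, H2-K1 1.53 and Cd86 1.51, and Ctsl stood at 0.637. Tap2 and Irf4 thus lay above 1 in the monocytes and below 1 over all macrophages, as the chains did. Lgmn, Ctsd and Cd86 lay above 1 in both, and Ctsl lay below 1 in the monocytes and above 1 over all macrophages. Whether these ratios differ beyond library error was not tested. In dendritic cells 4 of 19 were higher and 0 lower, beside 13.2% and 3.98% of all genes, Cd83 with 3.38, Ctsb 2.00, Tap2 1.99 and Sppl2a 1.52.

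The gene most like the chains across cell types was another member. Over 32 points, the 16 clusters of each library, the log2 CPM of the summed chains correlated with H2-DMb1 (Pearson r of 0.94), H2-DMa (0.92), Cd74 (0.92) and Ciita (0.87) among 5360 genes, with H2-DMb2 at 0.63 and H2-Ob at 0.34. Outside the set the 5 highest were Plekho1 (0.91), Ly86 (0.90), Ctsh (0.88), Lmo2 (0.87) and Fcgr2b (0.87). Plekho1 stood at 228 and 265 CPM in dendritic cells, 319 and 267 CPM in matrix macrophages, 141 and 145 CPM in B cells and 20.5 and 16.8 CPM in T cells. Ly86, the partner of the receptor RP105, stood at 414 and 451 CPM in dendritic cells, 395 and 367 CPM in B cells and 8.42 and 4.79 CPM in T cells. The points share their libraries and depth, so the correlations are descriptions.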

How the data were processed

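Per the labels and file headers, the authors counted UMIs with Cell Ranger 4.0.0 on mm10 and deposited filtered matrices of raw counts per gene and barcode, 1 library per condition. From these counts, barcodes passed at 200 or more detected genes and a mitochondrial share of 10% or less, which kept 87.8% of 2597 and 84.7% of 2381. The 2% limit of the study would have left 51.4% and 37.7%. Cells were clustered in R 4.3.3 with Seurat 5.3.0 and sctransform 0.4.2 on 1975 of 2000 integration features, 20 components and resolution 1.0. Scrublet in Scanpy 1.11.5 called 8 and 6 barcodes, too few to count as a working doublet call, so doublets were kept and left out in an alternative. That alternative left out Scrublet calls and cells with markers of 2 or more lineages among T cells, B cells, monocytes with macrophages, and neutrophils. Monocytes and macrophages were 1 lineage there and dendritic cells had none. The marker rule therefore could not find doublets of monocytes with macrophages or dendritic cells. A class name needed a marker score of 0.5 and 3 detected markers. A cluster also counted as macrophage-like if it reached these for a subset list, with that score above every class score, 3 general macrophage markers detected and their score above 0, which is how the matrix cluster (macrophage score 0.16) was named. A macrophage name also needed 2 of these markers among the 10 leading genes, which the Gm26917 cluster (score 1.13) lacked. These rules were set after the data were seen. UMIs were summed per class and library with Python 3.11.15 and SciPy 1.17.1. No test across cells was made, and the interval code was checked on simulated data. Ratios needed 50 UMIs over both libraries, and 1.5-fold was called. Genes named were all members, the pathway genes with the largest and smallest macrophage ratio per role or past 1.5-fold, and the 5 most alike with at least 200 UMIs per library, at a pseudocount of 10 CPM. Members and lists were chosen with earlier results of these data known. Results for dividing cells and type 2 innate lymphoid cells were not used.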

Additional observations from a re-analysis of the deposited data

Results flagged for a closer look

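The ratio of the class II chains, AdipoΔ/Δ over control, lay on different sides of 1 in different cell classes. It was above 1 in 5 classes, Ly6C high monocytes (5.59), Gngt2 monocytes (3.39), Ace monocytes (1.39), dendritic cells (1.29) and B cells (1.05), and below 1 in 3, M2-like (0.805), matrix (0.916) and lipid-associated macrophages (0.711). The direction in B cells reversed in 3 alternatives, and the AdipoΔ/Δ level of Ace monocytes (956 CPM) was under that of the neutrophils (1061 CPM). With 1 library per condition the difference between the classes was not tested.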

How the results depend on the processing

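Of 125 alternative values, 72 stayed within the counting interval (for the pathway gene count, within 1.5 times the count), 50 moved further and 3 reversed direction. The cause was not tested. No paired analysis was possible because each condition was 1 library, and leaving out a library was not possible.

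Ly6C high monocytes (5.59): 3.84 at a mitochondrial limit of 2%, 4.47 at 5%, 5.32 with at least 500 genes per cell, 10.7 with all features, 5.33 at resolution 2.0, 2.85 without anchors, 5.97 without doublets, 5.24 as a mean over cells and 4.17 without cells holding a macrophage or dendritic cell marker UMI. Ly6C low monocytes (2.31), in the same order: 2.67, 2.62, 2.73, 2.61, then 2.07 at resolution 0.6, 2.09 at 2.0, 1.19 without anchors, 1.90 as a mean over cells and 1.90 with the neutrophil level taken off. Macrophages (0.707): 0.751, 0.683, 0.723 and 0.726, then 0.685 without anchors, 0.662 with the neutrophil level taken off, 0.763 with the Gm26917 cluster and 0.860 with subset shares held. Dendritic cells (1.29): 1.38 at 2% and 1.25 with the neutrophil level taken off. B cells (1.05) reversed to 0.788 at 2%, 0.815 with 500 genes and 0.969 with the neutrophil level taken off, and gave 1.14 at 5%, 1.15 with all features and 1.11 without anchors.

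Matrix over M2-like macrophages in control (0.858): 0.776 at 5%, 0.908 with 500 genes, 0.765 without anchors, 0.822 without doublets and 0.704 as a mean over cells. In AdipoΔ/Δ (0.976): 0.878 at 5%, 0.953 with 500 genes, 0.923 with all features and 0.946 without anchors. At 2% no cluster was named M2-like, so no value was had. The share of Ly6C high monocytes with a chain UMI (21.3% and 50.8%) was 11.7% and 41.8% with all features, 16.6% and 42.0% thinned to 500 UMIs, 38.1% and 81.0% unthinned, 16.1% in control without doublets and 61.8% in AdipoΔ/Δ thinned to 2000. Of 31 pathway genes measured in macrophages, 10 were past the fold and 3 past 2-fold (2 higher, 1 lower). With at least 200 UMIs asked, 6 of 19 were past the fold (5 higher, 1 lower). The H2-DMb2 share held in 8 of 8 alternatives, at 84.0% to 85.6% in B cells and 8.50% to 9.79% in macrophages of both libraries. Taking off the neutrophil level, leaving out marker cells, counting the Gm26917 cluster and holding the subset shares were chosen after seeing the data. The marker rule of the doublet alternative could not find doublets of monocytes with macrophages or dendritic cells. Depth limits H2-Oa, H2-Ob and Ciita outside B and dendritic cells, where most classes had under 100 UMIs of each. It also limits Ciita in B cells and H2-Oa in dendritic cells, whose UMIs are given above.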
